A study of Mus musculus with 6 samples.

Results

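The genes described here encode the invariant parts of the T cell receptor complex (Cd3d, Cd3e, Cd3g and Cd247), the kinases and the scaffold that carry its signal (Zap70, Lck and Lat), and surface molecules found on T cells that live in epithelium (Cd7, Cd96 and Itgae). They are 10 genes with 12 probes on the array, out of 24352 genes or other targets tested from 55681 probes. They were chosen by name with the UVB comparison of these same arrays already known, so their differences are given as a description and carry no test. Back skin came from male C57BL/6 mice aged 6 to 8 weeks. In the UVB group, 3 mice had the hair of the back shaved and from 2 days later were exposed to ultraviolet B light, at a dose of 180 mJ/cm2 given 3 times in each week, over 2 weeks. In the control group, 3 mice of the same strain, sex and age were shaved too, but were kept in the dark and given no UVB. Total RNA of each mouse was labelled with Cy3 and read on an Agilent microarray, which reports the brightness of each probe. The labels do not state when the skin was taken after the final session, and they name skin without a layer, so epidermis and dermis are not told apart.

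A T cell recognises its target through a pair of variable chains, either alpha with beta or gamma with delta. These chains have almost no signalling part of their own, and the CD3 gamma, delta, epsilon and zeta chains that surround them carry the signal into the cell. Their tails hold immunoreceptor tyrosine-based activation motifs (ITAMs), which the kinase Lck phosphorylates, after which Zap70 docks on them and phosphorylates the scaffold Lat. Mouse epidermis is known for its own resident T cells, the dendritic epidermal T cells, which sit between keratinocytes, carry gamma-delta receptors of very little diversity and respond to stressed or wounded neighbours.

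Probes for a pair of the chains lie in the coding stretch of an ITAM, so that they are aimed at the RNA that encodes the signalling motif. The sequences below are the array probes as the scanner files give them, 5′ to 3′, in the sense of the transcript. Capitals mark the 45 bases, or 15 codons, that encode the ITAM.
Cd3d: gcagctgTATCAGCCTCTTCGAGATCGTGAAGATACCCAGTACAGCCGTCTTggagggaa
Cd247: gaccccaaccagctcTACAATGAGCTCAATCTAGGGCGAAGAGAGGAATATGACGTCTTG
The Cd3d probe is annotated at chr9:44794171-44794402 (mm9, plus strand) and the Cd247 probe at chr1:167786567-167787585 (mm9, plus strand). Each is 60 bases long but covers 232 and 1019 bases of the genome in that order, so each spans an intron and reads spliced RNA. Codons of the ITAM pattern occurred on the probe strand of 37 of the 55681 probes, or 0.0665%, and on the other strand of 33, or 0.0593%. A match to the pattern is a description of the letters and not evidence of a working motif.

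Levels are given as log2 of the background-subtracted signal minus the log2 of the same array's 75th percentile, so that 0 is a probe as bright as that percentile and 1 unit is a 2-fold difference. Differences are the UVB mean minus the control mean with the standard error of the limma fit, a linear model fitted to all targets together, with 3 mice in each group throughout. A gene is counted as lower or higher if its p-value in that fit, adjusted over all targets by Benjamini and Hochberg, was under 0.05. The 75th percentile itself was 351.9, 314.5 and 301.8 in signal on UVB arrays 1 to 3 and 362.7, 518.8 and 484.0 on control arrays 1 to 3. Arrays correlated at 0.980 to 0.991 within groups and at 0.953 to 0.972 between groups.

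In UVB skin, Cd7, Cd3g, Cd96 and Cd3d stood furthest below the level of control skin, Zap70, Lck and Cd3e less so, and Lat, Cd247 and Itgae did not pass. Of the 10 members, 7 were counted as lower, where 7.01% of all targets were, and none as higher, where 5.55% of all targets were. All UVB arrays lay below all control arrays for 8 of the 10 members, against 22.6% of all targets. The median difference of the members was -0.90, against -0.04 over all targets. Since the members were picked with this contrast in view, nothing is read from these shares or from how many alternative fits a member passed. In whole skin, fewer cells of a type and less RNA per cell cannot be told apart, which holds for every difference below.

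Of the CD3 chains, gamma and delta differed more between the groups than epsilon. Cd3g, whose chain pairs with CD3 epsilon, had levels of -0.14, 0.20 and -0.04 on the UVB arrays, against 2.37, 2.00 and 1.81 on the control arrays. The 3 UVB arrays all sat more than 1 unit below the lowest control array. The difference was -2.05 ± 0.18, or 4.14-fold lower in UVB skin. Cd3d, whose chain forms the other heterodimer with CD3 epsilon, had -0.22, -0.04 and -0.43 on the UVB arrays, against 1.41, 1.15 and 1.09 on the control arrays. The groups again did not overlap, and the difference was -1.45 ± 0.16, or 2.72-fold lower. This is the probe printed above, so the lower signal is that of spliced RNA through the ITAM.

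Cd3e, the chain shared by both heterodimers, differed less. Its levels were 2.10, 2.50 and 2.36 on the UVB arrays, against 3.22, 2.87 and 2.87 on the control arrays, a difference of -0.67 ± 0.17 or 1.59-fold lower. The groups did not overlap, but the gap between the highest UVB array and the lowest control array was only 0.37. Cd3e did not pass in any of the 6 fits that each left out 1 array, and it passed in 5 of 9 other alternatives.

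Cd247 encodes the zeta chain, which carries most of the ITAMs of the complex, and its probes gave different answers. The brighter probe, which represents the gene, had levels of -4.40, -4.48 and -3.29 on the UVB arrays, against -4.41, -4.04 and -4.08 on the control arrays. The groups overlapped, UVB array 3 was the highest of all 6, and the probe stood clearly over background on 1 UVB array and on 3 control arrays. The difference was 0.11 ± 0.34. The ITAM probe printed above had -6.81, -5.78 and -6.77 on the UVB arrays, where it was never well above background, against -4.27, -4.60 and -4.70 on the control arrays, where it always was. It entered the test only through its control arrays and therefore had to differ, and no fold is given because the detection limit of the UVB arrays lay above its control level. Signals this low also carry an offset between the groups: the 18520 probes below background on all arrays lay a median of 0.54 higher on the UVB arrays at this scaling.

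The kinases were lower in UVB skin by less than Cd3g and Cd3d. Zap70 had levels of -0.90, -1.08 and -1.11 on the UVB arrays, against 0.27, -0.19 and -0.18 on the control arrays, without overlap. The difference was -0.996 ± 0.170, and its dimmer second probe gave -1.01 ± 0.18, so both probes of the gene moved alike. Lck, the Src-family kinase that phosphorylates the ITAMs, had 0.08, 0.48 and 0.03 on the UVB arrays, against 1.31, 0.88 and 0.80 on the control arrays. The groups did not overlap and the difference was -0.80 ± 0.20. With 1 array left out, Zap70 passed in 3 of 6 fits and Lck in none, and of 9 other alternatives Zap70 passed in 8 and Lck in 5.

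Lat, the membrane scaffold that Zap70 phosphorylates, had levels of -1.35, -1.44 and -1.54 on the UVB arrays, against -0.43, -0.99 and -1.13 on the control arrays. The UVB arrays lay below the control arrays, but control array 1 stood well above the other two and the difference of -0.59 ± 0.20 did not pass.

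Cd7 differed most of all members. It encodes an immunoglobulin-family receptor of T cells and natural killer cells, and its levels were -0.37, 0.11 and -0.03 on the UVB arrays, against 2.71, 2.30 and 2.25 on the control arrays. No UVB array came within 2 units of a control array, and the difference was -2.52 ± 0.19, or 5.72-fold lower. Cd96, a receptor of T and natural killer cells that binds CD155, had -2.52, -2.17 and -2.13 on the UVB arrays, against -0.46, -0.39 and -0.61 on the control arrays. The groups stood apart here too, at -1.79 ± 0.15 or 3.46-fold lower, a difference that normexp background correction, which adds an offset to dim signals, reduced to -1.18.

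Itgae did not follow them. It encodes CD103, the integrin alpha chain that ties resident T cells to E-cadherin on keratinocytes, and its levels were -4.00, -3.67 and -4.16 on the UVB arrays, against -3.90, -3.17 and -3.33 on the control arrays. The groups overlapped at a low level, and the difference of -0.47 ± 0.23 turned to 0.09 with normexp. The probe spans 986 bases of chromosome 11 for its 60 bases and so reads spliced RNA.

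**Figure D1:**
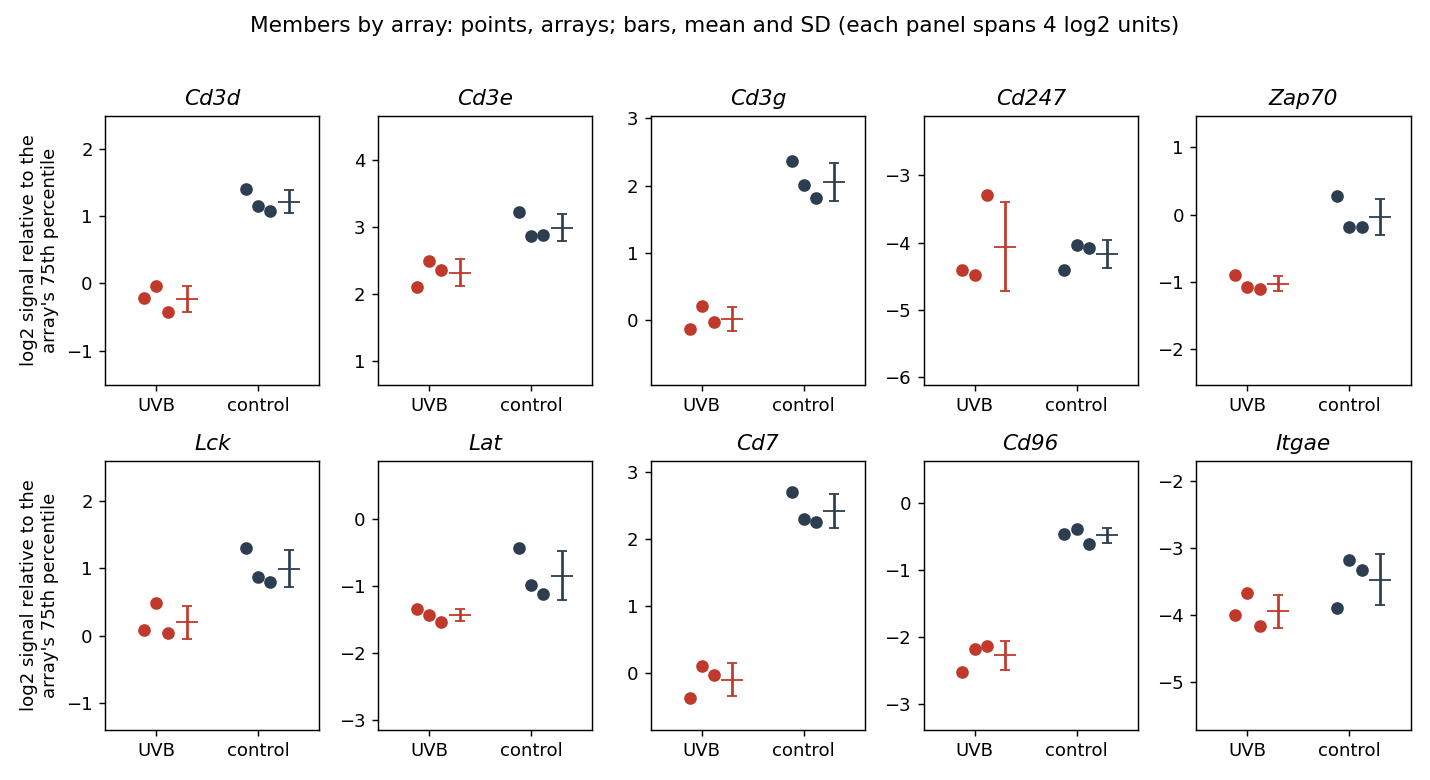
Log2 signal relative to the array's 75th percentile for each member, with UVB arrays on the left and control arrays on the right of each panel, and bars for the mean and SD of 3 arrays. Every panel spans the same number of log2 units around its own middle, and 8 of the 10 members have all UVB points below all control points, with Cd247 and Itgae overlapping.

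Some arrays were often the highest of their group. Control array 1 was the highest control array for 7 of the 10 members, and UVB array 2 was the highest UVB array for 6. Control array 1 also had the lowest 75th percentile of its group, at 362.7, and the part of that scaling in its ranks was not tested. How often these arrays ranked highest over all targets was not computed, so the counts are no result about the members.

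Setting each member against Cd3e on the same array removes any factor common to the probes of an array. Such a difference between probes has no meaning as a level, and only its shift between arrays does. Cd7 minus Cd3e was -2.47, -2.39 and -2.38 on the UVB arrays, against -0.51, -0.57 and -0.62 on the control arrays, a shift of -1.85. Cd3g minus Cd3e was -2.24, -2.29 and -2.39 on the UVB arrays, against -0.85, -0.87 and -1.07 on the control arrays, a shift of -1.38. The scatter within a group was far smaller than these shifts. Cd96 shifted by -1.12 and Cd3d by -0.78, also without overlap of the groups. The other 5 members overlapped between groups relative to Cd3e: Zap70 shifted by -0.33, Lck by -0.13, Lat by 0.08, Itgae by 0.19 and Cd247 by 0.78. The shift of Cd7, Cd3g, Cd96 and Cd3d was thus larger than that of Cd3e, and none of these shifts was tested. The share of all targets without overlap relative to Cd3e was not computed, so the counts are no result about the members.

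**Figure D2:**
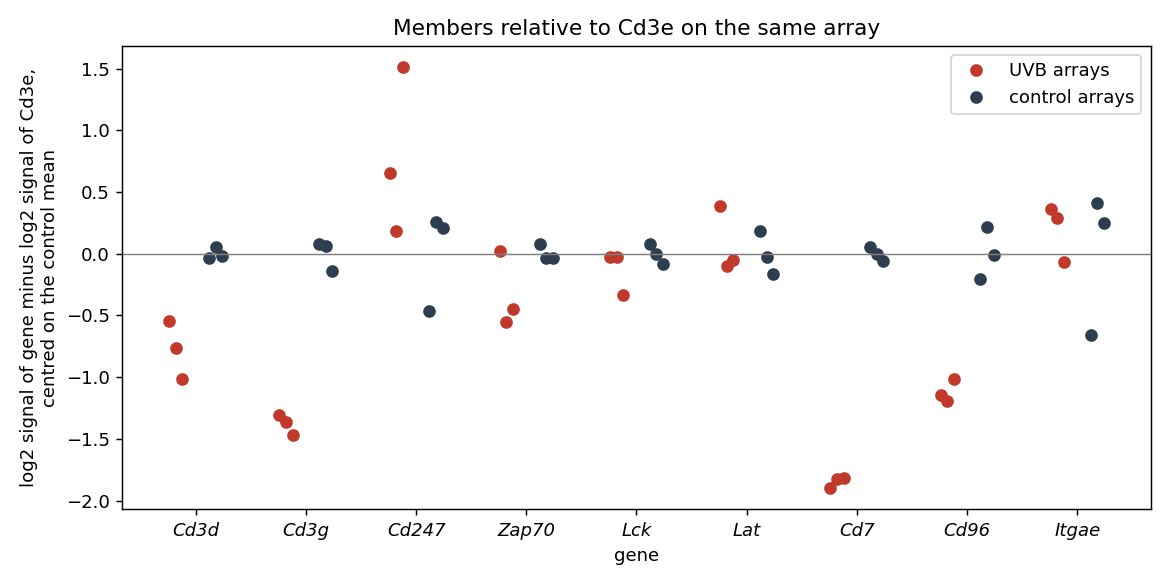
Log2 signal of each member minus that of Cd3e on the same array, centred on the control mean, with the 3 UVB arrays left of the 3 control arrays for each gene. UVB points of Cd3d, Cd3g, Cd7 and Cd96 lie below all control points, and the other 5 members overlap.

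The CD3 genes are neighbours on chromosome 9, where the 3 genes span 40092 bases in RefSeq (GRCm38.p6) and Cd3g and Cd3d are transcribed away from each other with 1337 bases between their gene models. The 250 bases before the transcript start that RefSeq's promoter table uses for each gene are printed below because the genes lie next to each other and all 3 were lower in UVB skin, by different amounts. For Cd3d and Cd3e the gene model begins before that start, so that part of the window lies inside it. Each is given 5′ to 3′ on the strand of its gene. Capitals mark GGAA, the core of Ets-family sites, and TGTGG, the core of Runx sites, on either strand, so that the reverse complements TTCC and CCACA are in capitals too.
Cd3g, chr9:44980432-44980681, minus strand: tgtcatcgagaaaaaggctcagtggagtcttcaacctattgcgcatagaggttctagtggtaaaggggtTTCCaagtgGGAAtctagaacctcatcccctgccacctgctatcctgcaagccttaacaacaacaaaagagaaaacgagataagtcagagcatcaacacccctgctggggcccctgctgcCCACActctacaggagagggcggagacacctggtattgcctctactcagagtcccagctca
Cd3d, chr9:44981536-44981785, plus strand: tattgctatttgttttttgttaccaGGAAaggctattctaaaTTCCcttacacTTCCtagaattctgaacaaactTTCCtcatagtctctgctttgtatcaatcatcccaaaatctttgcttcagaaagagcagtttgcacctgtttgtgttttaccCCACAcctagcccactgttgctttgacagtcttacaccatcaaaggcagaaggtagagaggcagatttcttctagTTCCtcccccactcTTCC
Cd3e, chr9:45009612-45009861, minus strand: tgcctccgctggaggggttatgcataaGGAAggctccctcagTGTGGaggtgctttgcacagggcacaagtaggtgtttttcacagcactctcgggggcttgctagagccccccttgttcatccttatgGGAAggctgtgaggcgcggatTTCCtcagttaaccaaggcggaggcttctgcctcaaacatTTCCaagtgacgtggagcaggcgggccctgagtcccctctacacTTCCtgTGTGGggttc
GGAA occurred 2 times before Cd3g, 6 times before Cd3d and 5 times before Cd3e, and TGTGG 1, 1 and 2 times in the same order. The motifs can overlap each other at their ends. Of 32851 windows of this length in the table, 93.4% hold GGAA and 49.3% hold TGTGG, so that these letters are common, and such matches are descriptions and not binding sites. The table holds windows for 8 of the 10 members.

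Of the 5 RefSeq genes on either side of the CD3 cluster, 9 of 10 were tested, and 1 of them was higher and none lower. With 5.55% of all targets higher and 7.01% lower, so few genes give no result about the locus. Ube4a, next to Cd3g, differed by 0.33 ± 0.13 (limma, adjusted p = 0.145), and Mpzl2, next to Cd3e, by 0.20 ± 0.15 (limma, adjusted p = 0.389). The single neighbour that passed was Jaml, which rose by 0.82 ± 0.15 (limma, adjusted p = 0.0232) and is itself a co-receptor of epidermal gamma-delta T cells.

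Among the variable partners of the CD3 chains, most tested probes for gamma chains fell in UVB skin, and no tested probe for an alpha or beta chain was called lower. The array carries 46 probes annotated to a T cell receptor chain, 24 of which were bright enough to be tested one by one. These were 7 of 9 gamma probes, 8 of 19 alpha probes and 9 of 18 beta probes. The probes left out were too dim to be tested for a fall. A beta probe among them had all UVB arrays below all control arrays, at means of -6.53 and -5.06. It was well above background on 1 control array only. Of 7 tested gamma probes 6 were lower, where 6.10% of all 33759 tested probes were, with a median of -1.49. Of these, 2 were not well above background on a UVB array, entered the test only through the control arrays and so had to differ, and of the other 5 gamma probes 4 were lower, with a median of -1.40. Of 8 tested alpha probes none was lower and 1 was higher, with a median of 0.21, and of 9 tested beta probes none was called either way, with a median of 0.20, where 5.08% of all tested probes were higher. Probes of 1 chain can read the same transcripts and are not replicates, and the difference between chains was not tested. Constant regions of the gamma chains are close copies of each other, and how far a probe reads more than 1 of them was not tested. How far the tested alpha and beta probes read the receptors of conventional T cells was not tested. No delta chain probe was among these 46.

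One of the gamma probes seen only in control skin lies in a variable segment annotated as gammaB-V5, at chr13:19284529-19284588 (mm9, plus strand). It is shown because a segment names a kind of receptor and not only a chain.
gammaB-V5 segment: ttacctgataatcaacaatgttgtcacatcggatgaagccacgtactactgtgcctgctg
Its levels were -5.47, -4.53 and -4.44 on the UVB arrays, none of them well above background, against -1.15, -1.36 and -1.47 on the control arrays. It was at least 8.34-fold lower in UVB skin, measured against the detection limit of the UVB arrays, a bound given without a test because the probe passed the filter only through its control arrays. With normexp the fitted difference was -1.23. The C7.5 constant region was read by a pair of probes at chr13:19308428-19308487 and chr13:19306165-19306224 (mm9, plus strand). The first had levels of -1.73, -1.50 and -1.63 on the UVB arrays, against 1.52, 0.95 and 0.97 on the control arrays, without overlap. It fell by 2.77 ± 0.19, or 6.83-fold (limma, adjusted p = 0.0024), and the second fell by 2.61 ± 0.20 (limma, adjusted p = 0.00257). With normexp they differed by -2.27 and -1.76.

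The remaining gamma probes differed less. The probe for gamma variable 2 stayed at background on the UVB arrays and was at least 2.11-fold lower, again a bound without a test, but with normexp differed by only -0.12. The probes named Tcrg-C differed by -1.40 ± 0.15 and -1.16 ± 0.22 (limma, adjusted p = 0.00578 and 0.0263). The first is annotated as a gamma constant region and the second, at chr13:19432102-19432161, as a predicted gene. Normexp reduced the differences to -0.44 and -0.12, the second no longer passing (limma, adjusted p = 0.535). A seventh probe, named Tcrg-V1, at -0.38 ± 0.27, did not pass (limma, adjusted p = 0.393). It lies at chr13:19443911-19443970, close to the first Tcrg-C probe at chr13:19444153-19444212 (mm9, plus strand). Both were well above background on all arrays, and these neighbouring probes did not move alike. With 1 array left out, 4 to 6 of the 7 gamma probes were lower, and those lost were the gamma variable 2 probe and the second Tcrg-C probe.

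The constant region of the beta-2 chain belongs to the receptors of conventional T cells. Its levels were 4.58, 4.89 and 4.41 on the UVB arrays, against 4.36, 4.30 and 4.29 on the control arrays. The UVB arrays were slightly above the control arrays, and the difference of 0.31 ± 0.15 did not pass (limma, adjusted p = 0.232). On every array this probe was brighter than that of Cd3e, the brightest member, which ranged from 2.10 to 3.22. How far it reads conventional T cells alone was not tested. An alpha chain probe at chr14:54841802-54842701 (mm9, plus strand) was too dim to test, with means of -6.32 in UVB skin and -6.95 in control skin. The beta-2 probe therefore gives no result about the number of conventional T cells. The tested alpha probes were brighter than that probe, and what they read was not tested. The tested alpha and beta probes thus give no result about those cells either. The alpha probe that rose, at 0.62 ± 0.14 (limma, adjusted p = 0.0467), lost its call in every fit with 1 array left out and under median or quantile scaling.

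**Figure D3:**
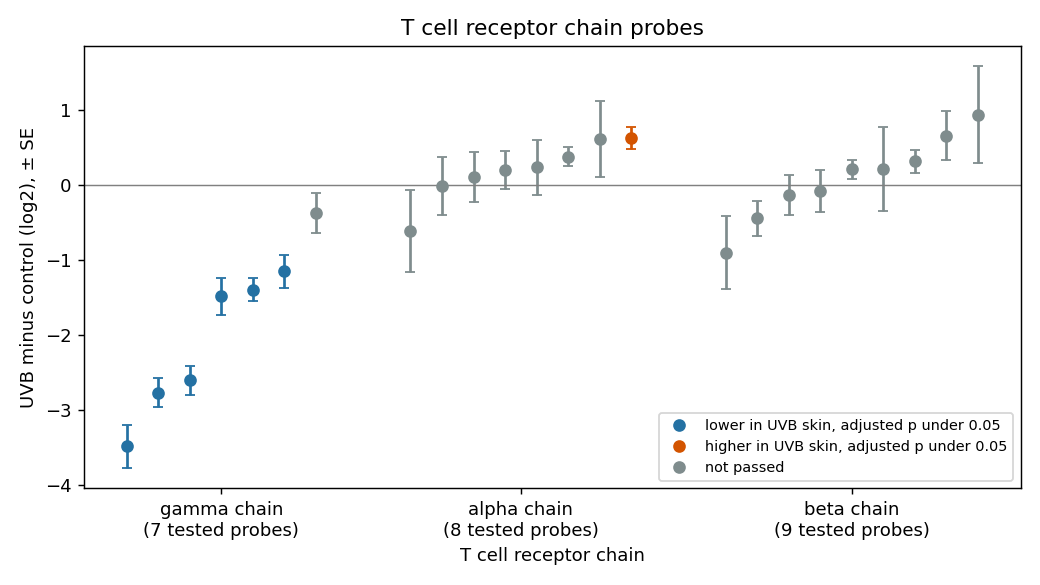
UVB minus control difference in log2 with its standard error for the 24 tested probes of T cell receptor chains, ordered within each chain. Blue points are lower and orange points higher in UVB skin at an adjusted p under 0.05: 6 of 7 gamma probes are blue, 2 of them tested only through the control arrays. The alpha and beta probes scatter around 0, which gives no result about conventional T cells.

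Other genes of T cell receptor signalling moved in both directions. Of 39 on the array 35 were tested, 9 were lower and 4 higher, against 7.01% and 5.55% of all targets, with a median of -0.22 against -0.04 over all targets. The genes Lcp2, Ubash3a and Pag1 were not above background on any array. Trat1, an adaptor that sits with the receptor complex and stabilises its zeta chain, fell furthest, with levels of -3.36, -2.59 and -2.70 on the UVB arrays, against 0.15, 0.02 and -0.20 on the control arrays. No UVB array came near a control array, and Trat1 fell by 2.87 ± 0.23, or 7.31-fold (limma, adjusted p = 0.00295). With normexp it fell by 1.87. Ptprc, the CD45 phosphatase that keeps Lck active and is carried by all leukocytes, fell by 0.84 ± 0.18 (limma, adjusted p = 0.0354), a call that 5 of 6 fits with 1 array left out did not keep, and differed by -0.49 with normexp.

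Fyn and Cd6 went the other way. Fyn, the other Src-family kinase of the receptor and one that many cell types besides T cells use, had levels of -2.38, -2.42 and -2.21 on the UVB arrays, against -3.84, -3.73 and -3.76 on the control arrays. It rose by 1.44 ± 0.12 (limma, adjusted p = 0.0031), or by 0.81 with normexp. Cd6, a surface glycoprotein of T cells, rose by 1.14 ± 0.11 (limma, adjusted p = 0.00395), but its 2 probes did not move alike and their mean did not pass (0.77, limma adjusted p = 0.124). With 1 array left out, 3 to 7 genes of the list were lower and 3 to 4 higher.

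Genes tied to residence in skin were split in the same way. Of 20 tested, 5 were lower and 3 higher, against 7.01% and 5.55% of all targets, with a median of 0.05. The lower ones included the cytokine receptor chains on which resident T cells depend. Il2rg, the common gamma chain, had levels of -2.01, -1.84 and -2.55 on the UVB arrays, against -0.41, -0.34 and -0.35 on the control arrays, and fell by 1.77 ± 0.20 (limma, adjusted p = 0.00603). Ccr4, a skin-homing chemokine receptor, fell by 1.33 ± 0.21 (limma, adjusted p = 0.0152). Xcl1, a chemokine that epidermal T cells release, had -2.19, -1.97 and -2.09 on the UVB arrays, against 0.25, -0.42 and -0.99 on the control arrays, and fell by 1.70 ± 0.31 (limma, adjusted p = 0.0212). With 1 array left out, Il2rg kept its call in 6 of 6 fits, Ccr4 in 5 and Xcl1 in 2.

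Il2rb and Il7r were the other lower genes of that list, named after their values were seen, at -1.01 ± 0.20 and -1.13 ± 0.21 (limma, adjusted p = 0.0267 and 0.022). Sema4d, the semaphorin CD100 that epidermal T cells use as a co-receptor, rose by 0.86 ± 0.15 (limma, adjusted p = 0.0212), a call kept in 3 of 6 fits with 1 array left out. Jaml rose as given above, and Prdm1, a transcription factor of resident T cells that keratinocytes use as well, rose by 1.48 ± 0.30 (limma, adjusted p = 0.0281). Itgb7, which encodes the beta chain that pairs with CD103, differed by -0.49 ± 0.13 (limma, adjusted p = 0.0582). Cd69, an early marker of residence, differed by 0.06 ± 0.22 (limma, adjusted p = 0.874), its sign turning with scaling. With 1 array left out, 1 to 4 genes of the list were lower and 0 to 2 higher.

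Of the listed genes of recirculating T cells, 5 were on the array and 3 were tested, and S1pr1 was not above background on any array. Of the tested genes 2 were lower, where 7.01% of all targets were, and so few genes give no result about recirculating cells. Tcf7, a transcription factor of naive and memory T cells, fell by 0.99 ± 0.15 (limma, adjusted p = 0.0141), or by 0.65 with normexp, and kept its call in 4 of 6 fits with 1 array left out. Ccr7, which guides T cells and dendritic cells out of skin to lymph nodes, had levels of -1.89, -1.09 and -2.47 on the UVB arrays, against -0.33, 0.10 and 0.18 on the control arrays. It fell by 1.80 ± 0.36 (limma, adjusted p = 0.0272), and kept its call in 2 of 6 fits with 1 array left out. Klf2, which drives exit from tissue, differed by -0.50 ± 0.22 (limma, adjusted p = 0.181).

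On the epithelial side, 18 partners of these T cells were tested, of which 1 was lower and 2 were higher, with a median of 0.14. These counts are near the shares over all targets, 7.01% lower and 5.55% higher, and are no result about the partners. H60c, a skin ligand of the receptor NKG2D, had levels of 2.89, 3.68 and 3.45 on the UVB arrays, against 2.01, 1.45 and 1.86 on the control arrays, and rose by 1.56 ± 0.25 (limma, adjusted p = 0.0153), a call kept in 5 of 6 fits with 1 array left out. Skint2, of the Skint family that epidermal gamma-delta T cells depend on, rose by 0.63 ± 0.11 (limma, adjusted p = 0.0206), a call kept in 1 of 6 fits with 1 array left out, and Skint3 differed by 0.47 ± 0.14 (limma, adjusted p = 0.0836). The other Skint3 probe rose by 0.73 ± 0.15 (limma, adjusted p = 0.0334), and Skint3 passed in 5 of 9 other alternatives but in none of the 6 fits with 1 array left out. Il7, a survival cytokine of these cells, stayed at background on the UVB arrays and was at least 1.41-fold lower, a bound without a test since it passed the filter only through its control arrays, with normexp leaving a difference of -0.12. Cdh1, which encodes the E-cadherin bound by CD103, differed by -0.03 ± 0.13 (limma, adjusted p = 0.909). Pvr, which encodes the CD155 bound by Cd96, differed by 0.11 ± 0.17 (limma, adjusted p = 0.697).

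**Figure D4:**
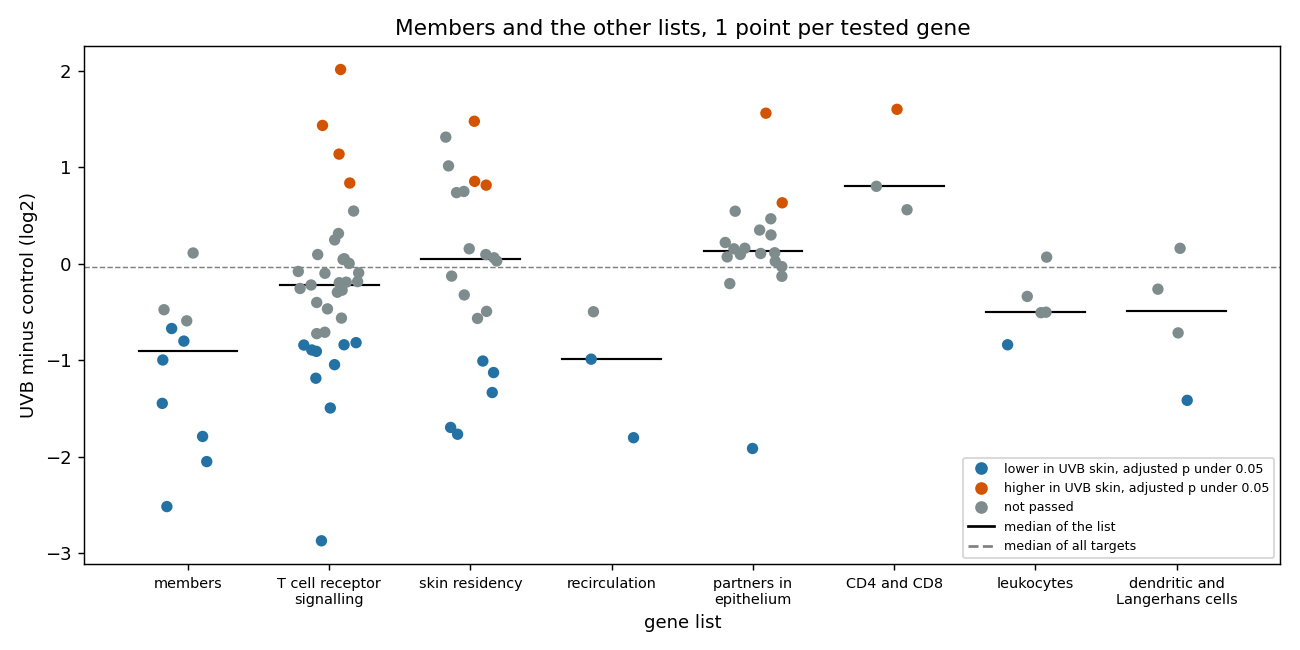
UVB minus control difference in log2 for each tested gene of the members and of 7 other lists, with the median of each list as a bar and that of all targets as a dashed line. The members lie mostly below the dashed line, signalling and residency genes spread to both sides, and the CD4 and CD8 genes lie above it.

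Markers of other cells that carry some of these transcripts were read beside them. Over all targets 7.01% were lower and 5.55% higher, so counts of calls in these short marker lists give no result about a cell type. CD4 and CD8 genes were not lower: of 3 tested none fell, Cd4 differed by 0.80 ± 0.25 (limma, adjusted p = 0.089), and Cd8a was at least 2.28-fold above the detection limit of the control arrays, where it was never well above background, a bound without a test since it passed the filter only through the UVB arrays. With normexp Cd8a differed by 0.65. Their summed linear signal, in multiples of the 75th percentile, ranged from 5.03 to 9.89 on the UVB arrays and from 3.80 to 4.08 on the control arrays, but Cd4, which did not pass, made up 96.5% to 98.8% of it on the UVB arrays and 97.6% to 98.2% on the control arrays. Of 5 natural killer cell genes 1 was tested and did not pass, and Ncr1 and Eomes, which define those cells, were not above background on any array. Of 5 leukocyte genes 1, Ptprc, was lower, and their summed signal was 14.0 to 19.8 on the UVB arrays and 15.8 to 21.5 on the control arrays.

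Cd207, the langerin of Langerhans cells, was lower beside the members. Its levels were 1.57, 2.02 and 1.55 on the UVB arrays, against 3.34, 3.01 and 3.03 on the control arrays, and it fell by 1.41 ± 0.18 (limma, adjusted p = 0.00831). Of 4 tested dendritic and Langerhans cell genes it was the only one called, where 7.01% of all targets were lower, so the count is no result about these cells. Their summed signal was 3.72 to 5.08 on the UVB arrays and 9.53 to 11.5 on the control arrays. Cd207 alone was 70.9% to 79.8% of it on the UVB arrays and 84.7% to 87.9% on the control arrays. Xcr1 was not above background on any array. No mast cell, platelet or keratinocyte gene of the marker lists was called, and Krt5, Krt14, Krt10 and Krt1 were well above background on all 6 arrays, as the label of skin requires. The part of these other cells in the members' differences was not tested.

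Among 14298 named genes well above background on all 6 arrays, those whose centred profile lay nearest to the mean profile of Cd3d, Cd3e and Cd3g were Traf5, Scin, Alox5, Fcer1g and Cd207, at root-mean-square distances of 0.0644, 0.0694, 0.0706, 0.0721 and 0.0724 log2 units over the 6 arrays. Traf5 had levels of 0.41, 0.56 and 0.49 on the UVB arrays, against 2.05, 1.81 and 1.68 on the control arrays. Likeness over 6 arrays in 2 groups mostly reflects the size of the difference between the groups.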

How the data were processed

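The authors deposited scanner output for 6 arrays, 1 per mouse, beside a table of log2 values. The spot intensity in the scanner output comes from Agilent Feature Extraction 10.7.1.1, per the file headers, with background subtracted and each array detrended, but with no scaling between arrays. The deposited log2 columns, once sorted, were alike within 0.00212, a property of quantile normalization. The sources used here do not give how that table was made, and only alternatives used it.

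Each array's 75th percentile, computed on the log2 intensity of non-control spots, was subtracted. Control spots and outlier flags were left out, and spots of a probe were averaged. A probe was tested if well above background on at least 3 of 6 arrays, and the brightest tested probe stood for its gene. Of 55681 probes, 26582 were named by accession and 3094 by symbol through RefSeq's gene table (GRCm38.p6), and 26005 kept the name in the files. Probe positions are those of the files (mm9). UVB was compared with control over all 24352 targets by a two-sided limma test (version 3.58.1, R 4.3.3) using lmFit and eBayes without covariates. The same fit was also run on data simulated from the means and spreads of these arrays, with an outcome not reported here. Where a group had no array well above background, a fold is a bound: the bright group's mean against the dim group's mean of, per array, the lowest signal well above background or the probe's own signal if that was higher. Summed marker signals add the tested genes of a list on the linear scale.

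Members and lists were chosen with earlier results of these data known, and the rule for receptor chain probes was written after the annotation was read. Named genes are the members, the 4 genes of smallest p in each list that is no marker list, called markers, Ptprc, Cd69, Itgb7, Cdh1 and Pvr, and the 5 genes most like the CD3 chains. The delta and alpha constant genes Trdc and Trac, which the rule also names, were not analysed here by symbol. Some genes that the rule names are not reported here. Groups were taken from the sample titles, with 3 mice each per the labels, so p-values measure the spread between mice, and the 3 arrays per group limit the precision.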

Additional observations from a re-analysis of the deposited data

How the results depend on the processing

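With 1 slide and 1 scan time for all 6 arrays, the planned fit with the slide as a block was not run. Cd3d, Cd3g, Cd7 and Cd96 passed in all 6 fits that left out 1 array and in all 9 other alternatives. These fits reuse the arrays with which the members were chosen, so their passes describe the processing and are no support for the differences. With 1 array left out, 468 to 957 targets were higher and 391 to 1064 lower, 4 to 5 members were lower with a median of -0.98 to -0.77, signalling genes were lower in 3 to 7 and higher in 3 to 4 cases, residency genes lower in 1 to 4 and higher in 0 to 2, gamma chain probes lower in 4 to 6, and alpha or beta chain probes higher in 0 to 0. Normexp gave 2548 higher targets and a member median of -0.77, and fitting without the filter on dim probes gave 1061 lower targets. Normexp moved the median of all targets to 0.08 and median scaling to -0.14, and the higher share of calls was 50.6% with normexp, 35.4% with median scaling and 44.2% in the report's fit. No alpha or beta chain probe was higher under quantile, median or deposited values or with the block, where the count was 0.

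Replicate numbers did not pair the mice: deviations of arrays with the same number correlated at -0.11, -0.26 and -0.08. A replicate block left 472 higher and 301 lower targets, 4 lower members, 3 lower signalling genes, and 1 higher and 1 lower residency gene.

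Differences near 0 changed sign. Itgae was 0.093 with normexp. Cd69 was -0.040 under quantile and deposited values and -0.038 under median scaling, and ranged from -0.11 without control replicate 3 to 0.22 without control replicate 1. Cdh1 was 0.019 under quantile and 0.018 under deposited values, and ranged from -0.10 to 0.034 with 1 array left out. Pvr ranged from -0.019 without control replicate 2 to 0.25. Cd247 was -0.91 as the mean of its probes. It passed there, but that mean includes the ITAM probe, which entered the test only through its control arrays and had to differ. With 1 array left out, Cd247 ranged from -0.27 without UVB replicate 3 to 0.33. The cause of these changes was not tested. Chain probe alternatives were chosen after seeing the data.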
